A study of Macaca mulatta with 449 samples.

Results

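The synaptotagmin family was represented here by 10 named genes, SYT1, SYT2, SYT3, SYT4, SYT5, SYT6, SYT7, SYT9, SYT10 and SYT12, chosen by name from the gene count table. Of these, 9 had a row among the 30807 genes of the table, and SYT3 was not analysed here. Their levels were followed through 51 sub-regions of the rhesus macaque brain in 8 animals. Every animal gave 1 RNA-seq sample of each sub-region, so that the animal was the replicate. The animals were 4 males and 4 females, described as healthy, with no treatment given in the labels, and are called here by the numbers of the labels. Animals 2 and 3 were males of 10 years, animal 6 was a female of 10 years and animal 11 a female of 9.8 years, and these formed the mid-aged stage. The young stage held animal 4 (female, 3.2 years), animal 7 (male, 4 years), animal 8 (male, 3.8 years) and animal 10 (female, 5 years). RNA was sequenced after depletion of ribosomal RNA, so that transcripts lacking a poly(A) tail were kept as well.

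Synaptotagmins are membrane proteins of synaptic and secretory vesicles whose pair of C2 domains binds membranes and, in many members, calcium. When calcium enters a nerve terminal, the calcium-bound C2 domains act on the SNARE proteins and the membrane to set off fusion of the vesicle. SYT1 and SYT2 are fast sensors that drive synchronous release, SYT7 is a slower sensor of high calcium affinity linked to asynchronous release and facilitation, and other members serve dense-core vesicles or bind calcium weakly or not at all.

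For the comparisons between regions the 31 cortical sub-regions were summed within each animal into 1 cortex group, and the other 20 sub-regions fell into 15 further groups. These were the olfactory bulb (OB), the entorhinal and perirhinal cortex (PA), amygdala (AMY), hippocampus (HIP; dentate gyrus DG, CA1 and CA3), striatum (STR; accumbens nucleus ACb, caudate nucleus CN and putamen PUT), globus pallidus (GP), thalamus (THA), hypothalamus (HTHA), substantia nigra (SN), ventral tegmental area (VTA), pons (PON), medulla oblongata (MO), cerebellum (CB; cerebellar cortex CBC and vermis CBV), corpus callosum (CC) and pituitary (PIT). Levels are given as CPM (counts scaled to a common library size with TMM factors), as mean ± SD over the 8 animals. Total counts per sample lay between 7784678 and 31083490 (median 10698602). No gene lengths were used, so a level is compared between regions and never between genes. In bulk tissue, fewer cells of a type and less RNA per cell cannot be told apart.

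Marker genes were in place for most of the labels checked. No markers were set for PA, AMY and GP, and OB and the joint label of MO and PON rested on 1 measured marker each. All measured markers were highest in their own group for CC, THA, HTHA, CB, PIT and the dopaminergic SN and VTA, while SLC17A7 was highest in HIP rather than in the cortex, DRD2 in SN rather than in STR, and 0 of 3 hippocampal markers peaked in HIP. PROX1, the granule cell marker, was nonetheless higher in DG (38 ± 20.3 CPM) than in CA1 (16.5 ± 8.37 CPM). A pair of samples of animal 6 stood furthest apart. The summed level of 3 cortical markers in its HTHA sample was 606 CPM against 7.43 to 17.8 CPM in the other animals, and the summed level of 9 pan-neuronal genes in its MO sample was 673 CPM against 4885 to 9320 CPM. Results for HTHA and MO are therefore also given without that sample where it mattered. Smaller departures were seen in GP of animal 2 (9 pan-neuronal genes at 1555 CPM against 2408 to 4155 CPM, 4 oligodendrocyte genes at 103959 CPM against 48144 to 70776 CPM), in HTHA of animal 3 (oligodendrocyte genes at 34204 CPM against 3319 to 19799 CPM) and in SN of animal 4 (cortical markers at 101 CPM against 3.75 to 43.8 CPM). With animal 2 left out, all 9 members had the same call in GP and no log2 fold change moved by more than 0.17. With animal 3 left out, SYT12 in HTHA fell just under the fold minimum, and with animal 4 left out, SYT2 in SN rose past it, while the other 8 members of each group had the same call. Animal 10 also stood apart in STR, with cortical markers at 93.4 CPM against 3.20 to 49.1 CPM in the other animals. Its CC sample held 2 choroid plexus genes at a summed 119 CPM against 11.0 to 31.9 CPM.

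All 9 members varied over the 16 region groups (edgeR quasi-likelihood F test, Benjamini-Hochberg FDR < 0.05), but so did 99.6% of the 17086 genes tested. Each of the 15 groups was then compared with the cortex, with a call at FDR < 0.05 and a fold above 2. The 15 comparisons share the same 8 cortex sums. Of the 135 pairs of a member and a group, 23 were higher than the cortex (17% of the pairs; 11.9% of all gene and group pairs were called higher), 56 were lower (41.5%; 12.7% of all) and 56 were not called. In 68 of the 79 called pairs the 8 animals of the group and the 8 cortex sums did not overlap. The same share was not computed for the called pairs of all genes, so this count sets nothing apart about the members. Single members departed widely from the balance of higher and lower calls. SYT9 was higher in 12 groups and lower in 0, whereas SYT1, SYT4, SYT5 and SYT7 were higher in 0 and lower in 7, 6, 8 and 7 groups. SYT2 (3 higher, 8 lower), SYT6 (4 and 2) and SYT10 (3 and 7) went both ways, and SYT12 was higher in CB alone and lower in 11 groups.

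**Figure D1:**
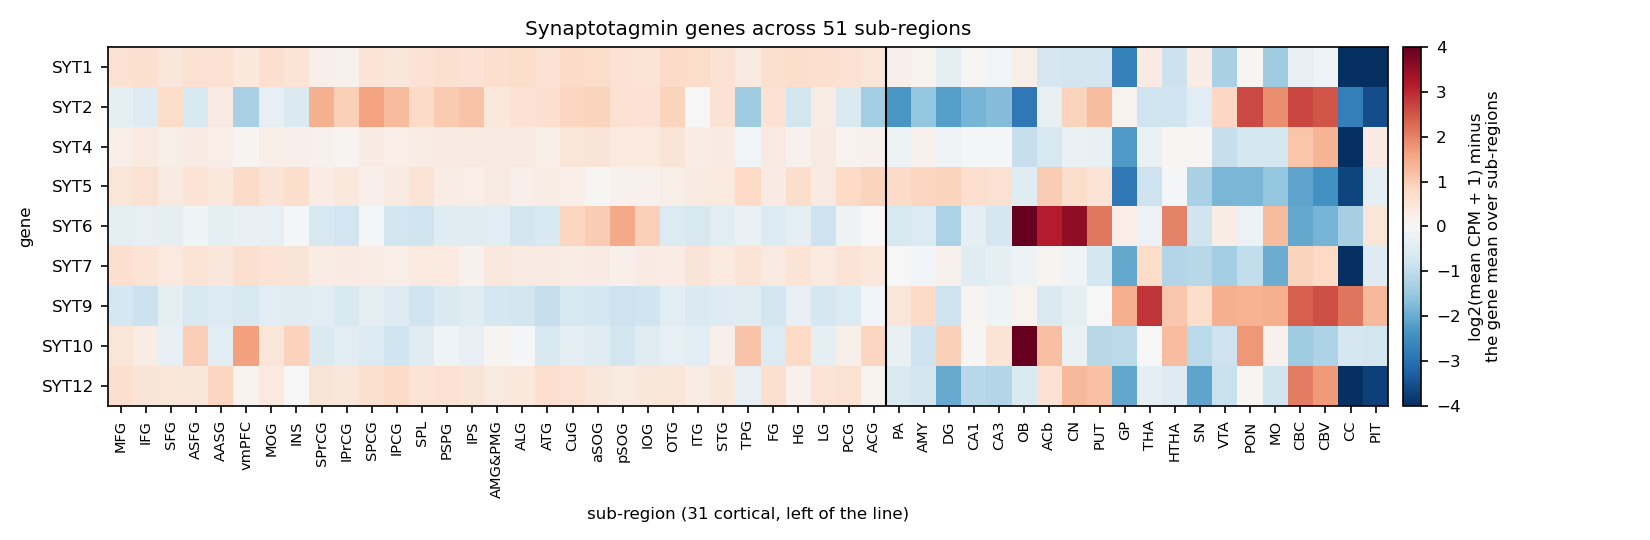
Mean level of each of the 9 synaptotagmin genes in the 51 sub-regions, as log2(mean CPM + 1) minus the mean of that gene over the sub-regions (colours end at −4 and 4). The 31 cortical sub-regions lie left of the black line. The near-even rows of SYT1, SYT4 and SYT7 in the cortex contrast with SYT6 and SYT10 in OB, SYT2 in PON and CB and SYT9 in THA, CB and CC.

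SYT1 (ENSMMUG00000005530), the fast calcium sensor of most forebrain synapses, was highest in the cortex at 2808 ± 120 CPM (n = 8). The 8 cortex sums had a median of 2790 CPM and lay between 2625 and 2961. THA (2304 ± 459 CPM), SN (2274 ± 652), OB (2179 ± 215), PA (2108 ± 310) and AMY (2067 ± 295) came next and were not told apart from the cortex at FDR < 0.05. Levels then fell through PON, HIP and CB, which passed the FDR but not the fold, to 7 groups that were called lower. STR stood at 1130 ± 104 CPM (2.49-fold lower), HTHA at 1008 ± 392 (2.78-fold, and 3.21-fold without the sample of animal 6), VTA at 735 ± 284 (3.85-fold), MO at 676 ± 355 (4.19-fold), GP at 282 ± 113 (10.0-fold), CC at 97.6 ± 51.9 (28.9-fold) and PIT at 38.4 ± 13.4 (73.0-fold). In PIT the 8 animals lay between 15.1 and 51.2 CPM with a median of 43.8, and the log2 fold change (log2FC) was −6.19 (SE 0.29, FDR 7.4e-39). None of the 8 animals of these 7 groups reached its own cortex level. Of the 15 steps between neighbours in the order of groups only the last 3, MO to GP, GP to CC and CC to PIT, passed FDR < 0.05. The neighbours were picked by the measured order of the same values.

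SYT2 (ENSMMUG00000004001) is the fast sensor of brainstem and cerebellar synapses and of fast-spiking interneurons. Its order was led by CB (96.3 ± 27 CPM) and PON (94.8 ± 40.9), which were not told apart, and then MO (54.1 ± 35.3). These were the groups called higher than the cortex (20.6 ± 10.5 CPM). CB was 4.98-fold higher (log2FC 2.32, SE 0.32, FDR 2e-10), PON 4.83-fold and MO 2.75-fold. The CB animals lay between 32.9 and 118 CPM (median 102), the PON animals between 34.5 and 148 (median 104) and the cortex sums between 7.83 and 35.2 (median 18.5). The ranges overlapped through animal 4, the lowest animal of CB, PON and cortex, yet each of the 8 animals was higher in CB and PON than in its own cortex. In MO 6 of 8 animals were above their cortex, and without the sample of animal 6 (1.14 CPM) the MO mean was 61.7 ± 30.3 CPM (n = 7) and the fold 3.20.

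SYT2 was lowest in temporal and olfactory structures, CC and PIT. AMY held 4.35 ± 1.93 CPM (4.38-fold below the cortex), HIP 3.11 ± 1.31 (6.41-fold), PA 2.07 ± 1.16 (9.59-fold), CC 1.32 ± 0.853 (13.8-fold), OB 1.13 ± 0.583 (17.7-fold) and PIT 0.315 ± 0.122 (61.2-fold). In these 6 groups no animal overlapped the cortex sums. The PIT level rests on 1 to 6 counts per animal. THA (7.91 ± 3.22 CPM) and HTHA (7.75 ± 6.50 CPM) were called lower as well, with ranges that overlapped the cortex. STR (24.8 ± 6.26 CPM), VTA (26.6 ± 7.16) and GP (15.9 ± 10.2) were not told apart from it. SN (10.2 ± 4.08 CPM, 1.84-fold) was below the fold minimum and passed it when animal 2 or 4 was left out (log2FC −1.01 and −1.03). In the reference table of RefSeq for another macaque assembly SYT2 overlaps PPP1R12B, and how reads of the overlap were counted is not given, so its part in these values was not tested. The same limit holds for other members there. SYT1 and SYT9 each overlap a transcribed pseudogene, and SYT2, SYT7 and SYT12 each overlap a long non-coding RNA gene.

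The balance of the fast sensors was followed as SYT2 counts per 100 SYT1 counts in the same sample, a quantity that needs no library scaling but is not corrected for gene length and was compared only between regions. In the cortex it was 0.739 ± 0.389, from 0.268 to 1.26. It reached 8.24 in MO, 6.24 in GP, 6.07 in CB, 5.18 in PON, 3.98 in VTA and 2.21 in STR, and in each of these 6 groups it was above the animal's own cortex in 8 of 8 animals. It dropped to 0.0521 in OB, 0.0990 in PA, 0.185 in HIP, 0.208 in AMY and 0.343 in THA, below the cortex in 8 of 8 animals each. The 8 animals of CB, PON and VTA lay above every cortex value and those of OB and PA below every one, whereas MO, GP, STR, HIP, AMY and THA overlapped it. For all 11 groups the exact two-sided sign-flip permutation test over the 8 animals gave p = 0.0078, the smallest it can give, and an adjusted p of 0.011 over the 15 groups. CC (1.43), PIT (0.858), HTHA (0.707) and SN (0.456) did not pass. Taken as a mean over sub-regions, THA no longer passed (adjusted p = 0.063, exact permutation test), while CC and PIT did (0.032 and 0.039). In STR, GP and VTA the SYT2 level itself was not told apart from the cortex, while SYT1 was called lower. In GP and MO the animals lay apart. Animals 2, 3, 4 and 6 had 1.17 to 3.18 in GP and 1.12 to 5.40 in MO, and animals 7, 8, 10 and 11 had 8.69 to 11.6 and 10.9 to 15.9. Without animal 6 the MO log2 difference from the cortex was 3.57 in place of 3.24.

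**Figure D2:**
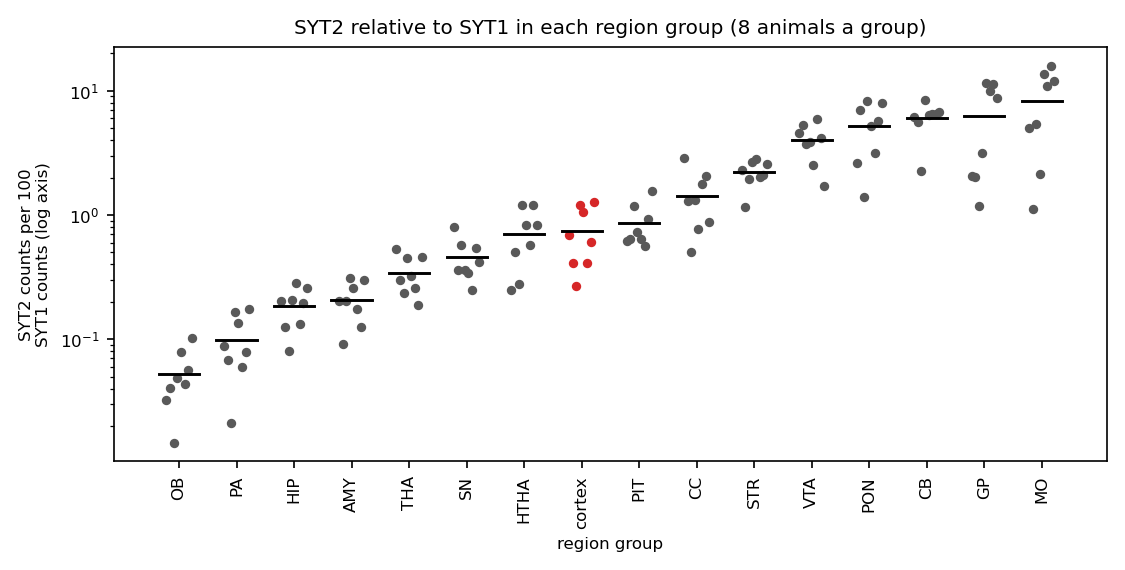
SYT2 counts per 100 SYT1 counts (log axis) in each of the 16 region groups, ordered by their mean (black lines); each point is 1 of 8 animals, with the cortex in red. OB, PA, HIP and AMY sit below the cortex, and VTA, PON, CB, GP and MO above it, and in GP and MO the points form an upper and a lower set of 4 animals.

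SYT7 (ENSMMUG00000005122), the slow sensor, was high in CB (498 ± 33.8 CPM), THA (442 ± 72.7) and cortex (367 ± 23.7), and these were not told apart at FDR < 0.05. The CB animals (465 to 565 CPM, median 485) all lay above the cortex sums (329 to 402, median 362), with log2FC 0.44 (SE 0.21, FDR 0.058). PA, AMY, HIP, STR, OB and PIT followed between 274 and 189 CPM, none past a fold of 2, although PIT (1.94-fold) passed it without animal 2 (log2FC −1.01). The 7 groups called lower were PON (134 ± 22.9 CPM), SN (125 ± 20.5), HTHA (118 ± 68.5), VTA (102 ± 35.3), MO (65.6 ± 42.6), GP (63.3 ± 15.7) and CC (13.9 ± 5.07), the last at 26.4-fold below the cortex (log2FC −4.72, SE 0.25, FDR 1.2e-34). The HTHA sample of animal 6 had 285 CPM and the other 7 animals 72.2 to 110. Without it the HTHA mean was 94.0 ± 12.9 CPM (n = 7) and 3.98-fold below the cortex in place of 3.11-fold.

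SYT5 and SYT9 bind calcium, but their names have been exchanged in parts of the literature, so no further role is given to either. SYT5 (ENSMMUG00000007653) was highest in amygdala, striatum and the cortical and hippocampal groups. AMY (238 ± 48.6 CPM), STR (223 ± 33), PA (222 ± 54.3), HIP (216 ± 30.6) and cortex (179 ± 22.9) were not told apart from AMY, the highest, and HTHA (122 ± 32.4), PIT (102 ± 27.7) and OB (92.0 ± 10.4) lay within 2-fold of the cortex. The 8 remaining groups were called lower, without overlap with the cortex in any of them. They ran from THA (71.0 ± 8.91 CPM, 2.48-fold) through SN (52.0 ± 13.2), MO (42.7 ± 33.4), PON (35.3 ± 6.99), VTA (34.8 ± 7.79) and CB (26.9 ± 10.8, 6.84-fold) to GP (16.8 ± 8.75) and CC (9.07 ± 5.21, 20.3-fold). The CB animals held 15.1 to 49 CPM with a median of 23.7, against 146 to 214 CPM in the cortex sums.

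SYT9 (ENSMMUG00000004267) had the opposite pattern. Its cortex level, 1.87 ± 0.364 CPM (1.26 to 2.42, median 1.94), was the lowest of all 16 groups. THA led with 29.6 ± 7.59 CPM (20.6 to 44.7, median 28.4), 15.8-fold above the cortex (log2FC 3.99, SE 0.20, FDR 6.1e-35), and CB with 23.3 ± 4.39 CPM (12.6-fold) was not told apart from THA. CC followed with 17.7 ± 2.77 CPM (14.7 to 21.8, median 17), 9.70-fold above the cortex. MO (10.6 ± 1.21 CPM), GP (10.5 ± 4.23), VTA (10.4 ± 2.62), PON (10.1 ± 1.86), PIT (9.66 ± 3.95), HTHA (7.97 ± 2.65), AMY (6.36 ± 2.40), SN (5.93 ± 1.56) and PA (5.01 ± 1.36) were called higher as well. In all 12 called groups each animal was above its own cortex and no animal overlapped the cortex sums. OB (3.73 ± 2.06 CPM, 1.98-fold), HIP (2.58 ± 0.672) and STR (2.45 ± 0.495) were within 2-fold, and OB passed the fold minimum without animal 2, 3, 4, 8 or 10 (log2FC 1.02 to 1.07). SYT9 was the only member called higher in CC, where the other 8 members were called lower. The summed level of 4 oligodendrocyte genes was 89343 to 117902 CPM in CC and 2578 to 3329 CPM in the cortex, and that of 9 pan-neuronal genes 342 to 753 CPM and 5604 to 6120 CPM; their part in the SYT9 level was not tested. In the MO sample of animal 6, low in pan-neuronal genes, SYT9 stood at 12.8 CPM, the highest of the 8 MO samples, while SYT1, SYT2, SYT4, SYT5, SYT6, SYT7 and SYT12 were at their lowest there. Other such samples went the other way. GP of animal 2, low in pan-neuronal and high in oligodendrocyte genes, held 6.18 CPM SYT9 against 11.1 ± 4.17 CPM in the other GP samples. HTHA of animal 3, high in oligodendrocyte genes, held 6.00 CPM against 8.25 ± 2.73 CPM in the other HTHA samples.

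SYT6 and SYT10 belong, with SYT3, to a group whose proteins are joined into pairs through cysteines near the N-terminus; SYT10 is known from the olfactory bulb, where it acts in the calcium-driven secretion of IGF-1, and SYT6 from exocytosis of the sperm acrosome. Both peaked in OB. SYT6 (ENSMMUG00000009781) reached 106 ± 42.1 CPM there (46.5 to 163, median 110) against 3.74 ± 0.537 CPM in the cortex (2.87 to 4.68, median 3.80), a 28-fold difference (log2FC 4.81, SE 0.34, FDR 9.8e-25). STR came second at 41.9 ± 8.83 CPM (32.9 to 57.0, 11.1-fold), followed by HTHA at 19.1 ± 6.88 (5.12-fold) and MO at 11.0 ± 10.2 (2.90-fold). The steps from OB to STR, STR to HTHA and HTHA to MO had an FDR of 6.03e-05, 0.000995 and 0.0237 (edgeR quasi-likelihood F test). The neighbours were again picked by the measured order. The animals of OB and STR overlapped, and those of MO spanned the HTHA range (7.51 to 27.8 CPM). OB, STR and HTHA did not overlap the cortex, while MO did, from 1.06 CPM in animal 6 to 34.7 CPM in animal 4. Without the sample of animal 6 the MO fold was 3.33. CC (0.996 ± 0.557 CPM, 3.81-fold) and CB (0.297 ± 0.197 CPM, 12.6-fold) were called lower. SN (1.91 ± 1.42 CPM, 1.98-fold) passed the fold minimum without animal 6 or 7 (log2FC −1.36 and −1.04).

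SYT10 (ENSMMUG00000010712) reached 52.6 ± 30.1 CPM in OB against 2.25 ± 0.768 CPM in the cortex, a 21.9-fold difference (log2FC 4.46, SE 0.34, FDR 2e-22). Animals 3 and 4 had 10.5 and 11.8 CPM in OB and the other 6 animals 40.3 to 84.8 CPM, and all 8 lay above every cortex sum (1.32 to 3.28 CPM). The same pair of animals had the lowest SYT6 levels in OB, 55.1 and 46.5 CPM. PON (8.64 ± 5.63 CPM, 3.71-fold) and HTHA (5.68 ± 2.29 CPM, 2.45-fold) were called higher than the cortex in 8 of 8 animals each, though their ranges overlapped it. The 7 groups called lower held from 0.125 CPM in CB to 0.797 CPM in CC, levels that rest on 0 to 26 counts per animal. Among them CC and PIT overlapped the cortex sums, and in PIT 2 of 8 animals were above their own cortex. CB, at 0.125 ± 0.0751 CPM (1 to 6 counts), was 17.5-fold below the cortex.

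SYT4 (ENSMMUG00000017016), a protein of dense-core vesicles with a changed calcium-binding site in its first C2 domain, was highest in CB at 1283 ± 178 CPM. All 8 CB animals (1012 to 1598 CPM, median 1280) lay above the cortex sums (618 to 753, median 636), a 1.93-fold difference that stayed just under the fold minimum (log2FC 0.95, SE 0.22, FDR 0.00011) and passed it without animal 10 (1.01). PIT was the second group at 681 ± 147 CPM (434 to 854), not told apart from the cortex at 658 ± 50.5 CPM (log2FC 0.05, SE 0.22, FDR 0.84). In that same tissue SYT1 was 73.0-fold and SYT12 24.9-fold below the cortex. SYT4 was called lower in PON (324 ± 75.4 CPM), MO (322 ± 139), OB (283 ± 44.1), VTA (278 ± 98.4), GP (108 ± 44) and CC (21.3 ± 11.3, 30.9-fold). The MO call was lost without the sample of animal 6 (28.3 CPM; log2FC −0.86 in place of −1.05) or without animal 4 (−0.997), and the PON call (−1.04) without animal 6 or 10 (−0.995 and −0.916).

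SYT12 (ENSMMUG00000011741), a member that lacks the residues for calcium binding, also peaked in CB, at 177 ± 40.8 CPM against 64.9 ± 13.5 CPM in the cortex (2.72-fold, log2FC 1.45, SE 0.20, FDR 2.1e-10). The CB animals ran from 139 to 270 CPM and the cortex sums from 45.8 to 91.8 CPM. STR was second at 95.9 ± 11.2 CPM, 1.5-fold above the cortex in 8 of 8 animals and below the fold minimum. PON and THA were not called, and the 11 groups called lower went from HTHA (31.3 ± 9.93 CPM, 2.04-fold) to PIT (2.51 ± 1.17, 24.9-fold) and CC (1.89 ± 0.968, 34.3-fold). The HTHA call (log2FC −1.03) was lost when animal 3, 4, 7, 8 or 11 was left out (−0.93 to −1.0), and it stood without animal 6 (−1.21). HIP, at 16.9 ± 2.32 CPM, was 3.79-fold below the cortex and SN, at 9.76 ± 2.71 CPM, 6.68-fold. Of the 15 steps between neighbours, 6 passed FDR < 0.05, the most of any member. Over all members 31 of 135 such steps passed. These neighbours were picked by the measured order, and the share of such steps over all genes was not computed. Over all 120 pairs of groups, 835 of the 1080 pairs of the 9 members passed FDR < 0.05 (77.3%), beside 61.1% of the pairs of all genes.

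**Figure D3:**
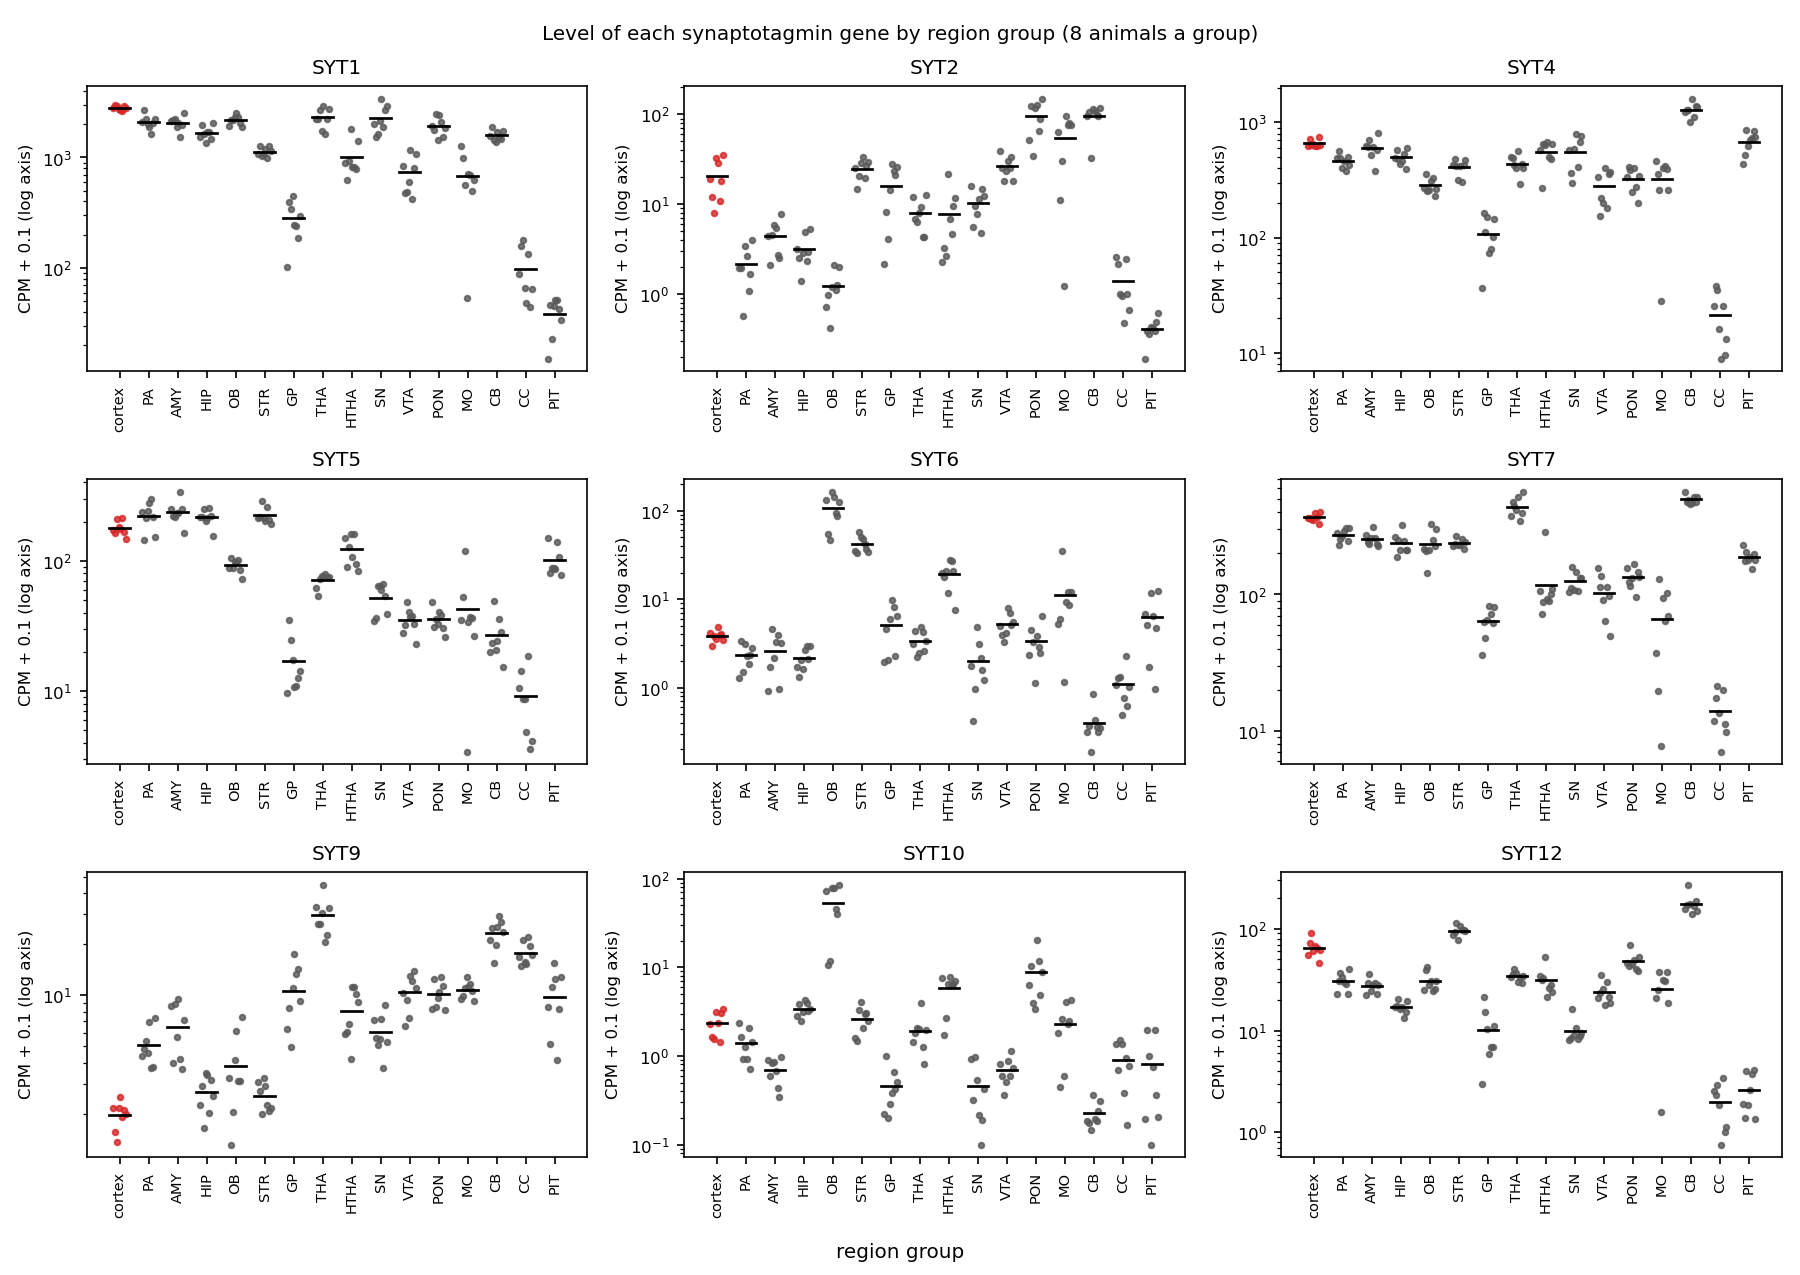
Level of each member (CPM + 0.1, log axis) in the 16 region groups; each point is 1 of 8 animals, the line is the mean and the cortex is red. SYT1, SYT4, SYT5, SYT7 and SYT12 drop steeply in GP and CC, SYT9 is lowest in the cortex, and SYT6 and SYT10 stand out in OB.

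Read by region, the white matter of CC had most members called, 8 lower and 1 higher (24.8% of all genes were called lower there and 19.4% higher), with a median log2FC of the members of −4.35 beside −4.16 for the 9 pan-neuronal genes and −0.06 for all genes. In GP 6 members were lower and 1 higher (background 18.4% and 16.6%), with a median of −2.61 beside −1.65 for the pan-neuronal genes. GP of animal 2 was the lowest of the 8 GP samples for SYT1, SYT2, SYT4, SYT5, SYT6, SYT7 and SYT12. VTA likewise had 6 lower and 1 higher (14.4% and 14.1%), with a median of −1.44 beside −0.30 for the pan-neuronal genes. The summed oligodendrocyte level was 48144 to 103959 CPM in GP, 40921 to 63949 in VTA, 28636 to 90209 in MO and 28840 to 50201 in PON, all above the cortex, and its part in these calls was not tested. PIT had 4 lower and 1 higher (24.3% and 20.5%). Its members had a median log2FC of −0.96, its pan-neuronal genes −3.65, and its summed oligodendrocyte level was 10.0 to 39 CPM. In PIT the members called lower were SYT1, SYT2, SYT10 and SYT12 and the one called higher was SYT9. CB had 3 higher (SYT2, SYT9, SYT12) and 3 lower (SYT5, SYT6, SYT10) against a background of 10.1% and 15.7%. PON also had 3 higher (SYT2, SYT9, SYT10) and 3 lower (SYT4, SYT5, SYT7; 11.3% and 13.9%), and MO 3 higher (SYT2, SYT6, SYT9) and 5 lower, 4 of them (SYT1, SYT5, SYT7, SYT12) also without the sample of animal 6 (15.3% and 13.4%). HTHA had 3 higher (SYT6, SYT9, SYT10) and 4 lower (10.7% and 8.08%), all of them also called without the sample of animal 6. OB had 2 higher and 3 lower (12.2% and 10.5%), SN 1 and 4 (13.8% and 14.2%), AMY 1 and 3 (5.1% and 4.69%), THA 1 and 2 (9.59% and 10.3%), PA 1 and 2 (5.39% and 3.63%) and STR 1 and 1 (8.77% and 8.34%). HIP was the group with 2 members lower, SYT2 and SYT12, and 0 higher (6.66% and 5.98%).

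Within the cortex all 9 members varied over the 31 sub-regions at FDR < 0.05, as did 75% of the genes tested. The size of the variation differed between members. SYT1, SYT4, SYT5 and SYT7 stayed within a 1.42-fold to 1.79-fold range of sub-region means, whereas SYT10 spanned 12.6-fold, SYT2 9.78-fold and SYT6 7.18-fold. SYT10 was highest in the ventromedial prefrontal cortex (vmPFC, 7.83 ± 2.43 CPM) and then in the temporal pole (TPG, 5.19 ± 1.82 CPM). It was lowest in the inferior postcentral gyrus (IPCG, 0.623 ± 0.605 CPM). In 7 of the 8 animals vmPFC held between 6.02 and 10.1 CPM, and animal 8 held 2.80 CPM.

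SYT2 was among its lowest in vmPFC and TPG, where SYT10 was highest. The orders of these genes over all 31 sub-regions were not compared. The highest sub-regions were the superior postcentral gyrus (SPCG, 45.6 ± 33 CPM) and the superior precentral gyrus (SPrCG, 40.2 ± 33.6 CPM), the somatosensory and motor strips, and the lowest were TPG (4.66 ± 1.4 CPM), the anterior cingulate gyrus (ACG, 4.84 ± 2.34 CPM) and vmPFC (5.14 ± 2.11 CPM). In SPCG the animals ran from 7.76 CPM (animal 4) to 102 CPM (animal 11), and in TPG from 2.62 to 6.86 CPM. The animals differed for SYT2 throughout the cortex, with a mean over the 31 sub-regions of 7.42 CPM in animal 4 and 34.4 CPM in animal 11, a 4.63-fold range. Animal 4 was the lowest for SYT2 in 7 of the 16 region groups and animal 11 the highest in 8. Over the 31 cortical sub-region means SYT2 moved with KCNC1 (Pearson r = 0.89), a potassium channel gene of fast-spiking cells, and PVALB (r = 0.82), the parvalbumin gene, more closely than with TAC1 (r = 0.38), all from the same libraries. SYT12 reached from 35.6 ± 7.64 CPM in TPG to 82.5 ± 18.9 CPM in the anterior arcuate sulcus gyrus (AASG), and SYT9 from 1.20 ± 0.586 CPM in the annectant gyri (ATG) to 2.84 ± 0.977 CPM in ACG.

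The occipital lobe was compared with the mean of the frontal, parietal, temporal and limbic lobes, counts being summed by lobe within each animal. At FDR < 0.05, 3 members were higher there and 4 lower, beside 27.3% and 27.5% of all genes tested. SYT6 showed the largest difference, 10.2 ± 4.16 CPM in the occipital lobe and 2.82 ± 0.336 CPM in the other lobes, 3.53-fold higher in 8 of 8 animals (log2FC 1.82, SE 0.13, FDR 3.4e-14). Its occipital values ran from 3.27 CPM in animal 11 to 15.0 CPM in animal 7. In animal 11 the occipital level was below its own frontal (3.35 CPM) and parietal (3.84 CPM) lobes. It was above only the temporal (2.69 CPM) and limbic (2.39 CPM) lobes of that animal. The posterior superior occipital gyrus (pSOG) held 13.1 ± 9.13 CPM, the anterior one (aSOG) 9.02 ± 5.70 CPM and the inferior occipital gyrus (IOG) 8.68 ± 7.69 CPM, and next in order was the cuneus (CuG, 8.07 ± 5.16 CPM), labelled as parietal. All other cortical sub-regions had means of 3.90 CPM or less. Within these 4 gyri the animals did not share 1 order. In pSOG animals 10 and 11 had 0.541 and 1.05 CPM and the other 6 had 7.06 to 24.8 CPM, while in IOG animal 10 was the highest at 22 CPM.

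SYT2 (23.8 ± 12.8 against 18.4 ± 9.62 CPM, 1.45-fold) and SYT4 (700 ± 67.7 against 620 ± 48.4 CPM, 1.13-fold) were the other members higher in the occipital lobe. For SYT2 this held in 6 of 8 animals, and the parietal lobe had a higher mean than the occipital lobe (28.5 ± 16.6 CPM). For SYT4 it held in 8 of 8 animals. SYT10 was 2.37-fold lower (0.902 ± 0.371 against 2.27 ± 0.737 CPM, FDR 3e-08) and below the other lobes in 8 of 8 animals. SYT5 (1.26-fold), SYT9 (1.26-fold) and SYT7 (1.11-fold) were lower by less. SYT1 (1.02-fold, FDR 0.47) and SYT12 (FDR 0.79) did not pass. Without the animal as a block SYT2 (FDR 0.27) and SYT9 (FDR 0.11) no longer passed.

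**Figure D4:**
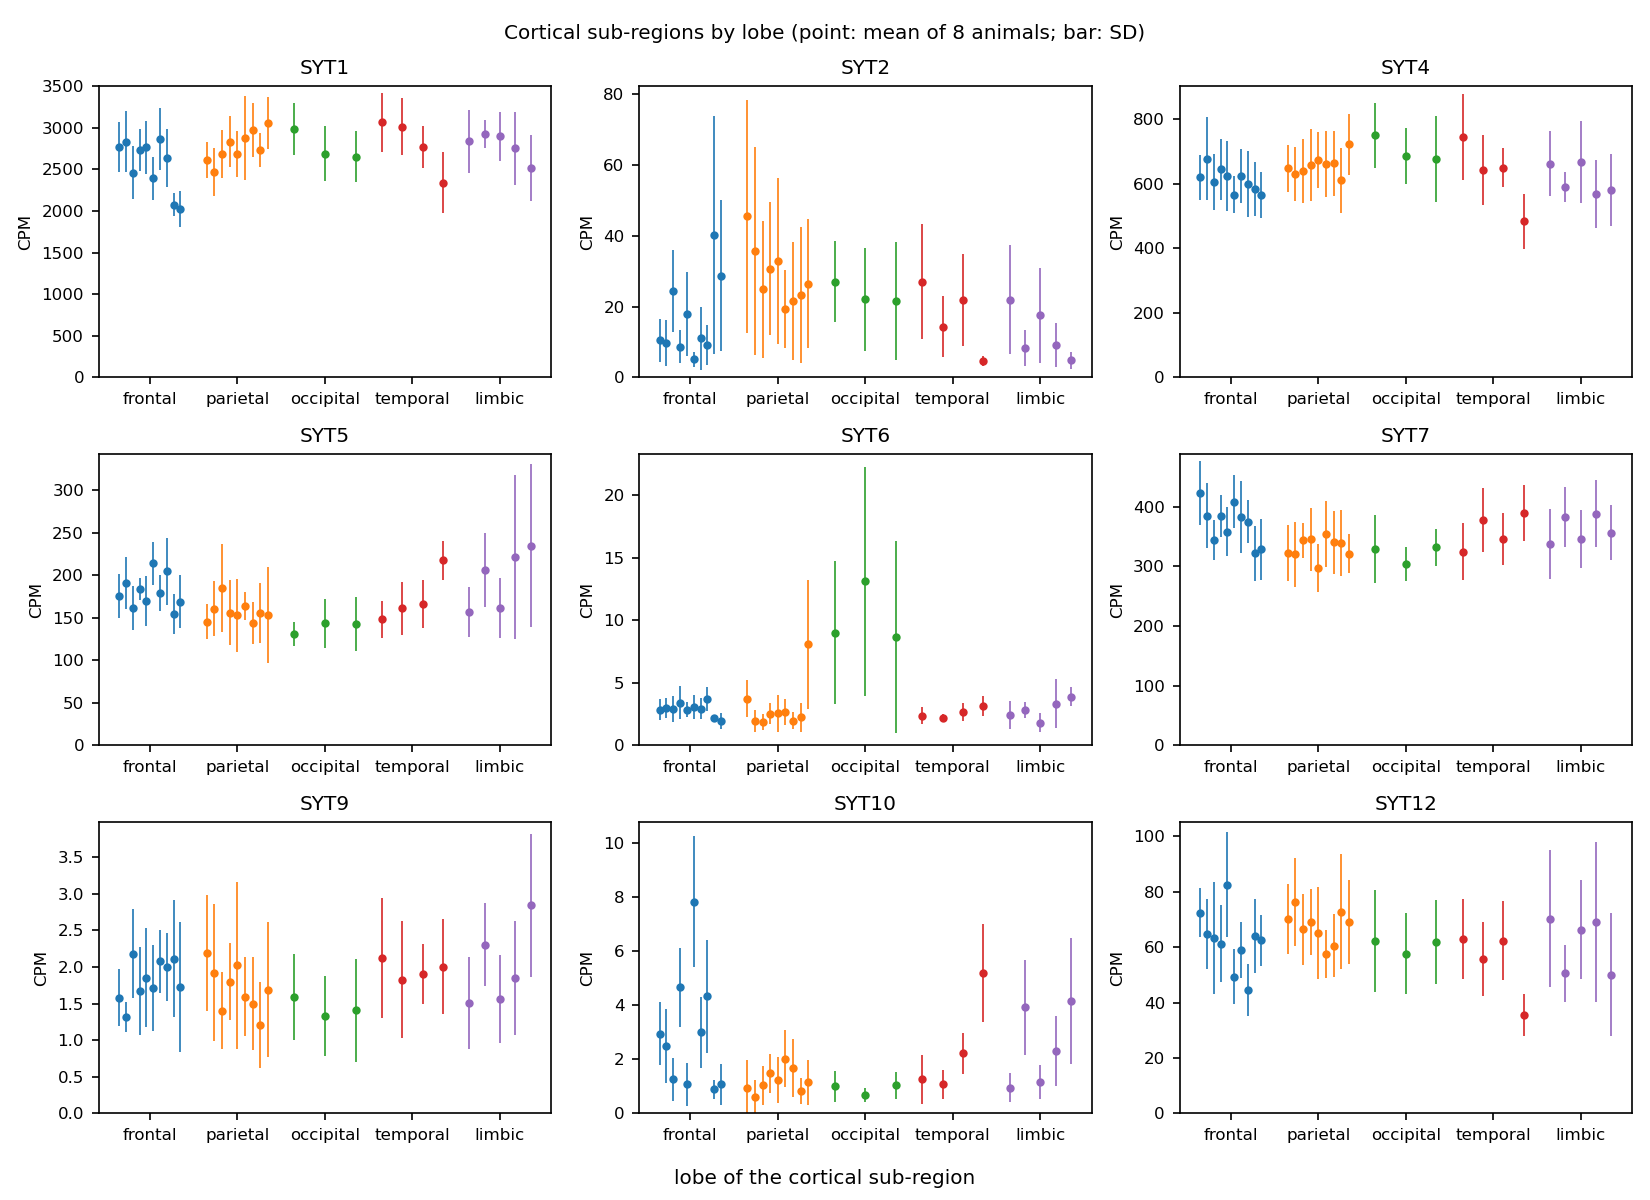
Mean CPM (points) and SD over 8 animals (bars, not drawn below 0) of each member in the 31 cortical sub-regions, arranged by lobe. The 3 occipital gyri and 1 parietal sub-region, the cuneus, stand above all others for SYT6, and frontal, temporal and limbic sub-regions hold the high SYT10 values.

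Among the sub-regions of STR a member was called for one of them when it exceeded each of the other two at FDR < 0.05 and 2-fold. The call was made once, for SYT10 in ACb (1.71% of genes were called for ACb, 0.636% for CN and 1.39% for PUT). SYT10 was 5.54 ± 2.67 CPM in ACb, 1.36 ± 1.04 in CN and 0.299 ± 0.242 in PUT, a 4.27-fold and an 18.1-fold difference, and in each of the 8 animals ACb exceeded CN and CN exceeded PUT. ACb ran from 2.15 to 9.87 CPM and PUT from 0 to 0.578 CPM. SYT7 followed the same order more gently, 284 ± 28.4, 239 ± 23.6 and 163 ± 23.1 CPM, with all 3 pairs at FDR < 0.05. SYT5 was likewise highest in ACb (256 ± 46 CPM, against 207 ± 35.1 in CN and 185 ± 29.2 in PUT), and SYT9 was highest in PUT (3.26 ± 0.723 CPM), above ACb and CN in 8 of 8 animals. SYT1 did not differ between the striatal sub-regions at FDR < 0.05 (1077 to 1137 CPM). SYT2 and SYT12 were ordered the other way around ACb. SYT2 was 11.4 ± 7.01 CPM in ACb, 27.5 ± 6.62 in CN and 34.5 ± 15.2 in PUT, and SYT12 67.8 ± 14.3, 111 ± 18.8 and 102 ± 13.4, with ACb below both others and CN not told apart from PUT in either gene. SYT4 was likewise lower in ACb (334 CPM) than in CN (432 CPM, FDR 0.019) and PUT (427 CPM, FDR 0.026), in 7 of 8 animals each. SYT6 was low in PUT (20.4 ± 6.82 CPM) relative to CN (57.1 ± 15.8) and ACb (42.7 ± 12.7), below both in 8 of 8 animals.

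In HIP 0 of 9 members exceeded both other sub-regions 2-fold by edgeR, beside 0.529% of genes called for DG, 0.00645% for CA1 and 0% for CA3; the count was also 0 at an unadjusted p under 0.05 and by DESeq2. DG nonetheless differed from CA1 and CA3 without reaching that mark. SYT7 was 300 ± 64.0 CPM in DG, 187 ± 31.3 in CA1 and 206 ± 52.8 in CA3, higher in DG than in both in 8 of 8 animals (FDR 0.0001 and 0.00037). SYT9 (1.38 ± 0.646 CPM in DG, 3.5 ± 0.864 in CA1, 2.70 ± 1.09 in CA3) and SYT12 (10.3 ± 3.17, 20.0 ± 3.49 and 19.3 ± 4.19 CPM) were lower in DG than in both in 8 of 8 animals, and SYT6 (1.09 ± 0.390, 2.85 ± 1.13 and 2.15 ± 0.954 CPM) was lower at FDR 0.0012 and 0.015. SYT1 was lower in DG (1375 CPM) than in CA1 (1852 CPM, FDR 0.0036, 8 of 8 animals) and CA3 (1684 CPM, FDR 0.041, 6 of 8 animals). SYT10 was higher in DG (4.53 ± 1.72 CPM) than in CA1 (1.93 ± 0.891 CPM, 2.45-fold, FDR 0.023), with CA3 between them (3.16 ± 2.10 CPM). No member differed between CA1 and CA3 at FDR < 0.05, the lowest FDR being 0.73. In CB 7 members were tested between CBC and CBV, 0 were called by edgeR (0.15% of genes for CBC, 0.104% for CBV), 0 at an unadjusted p under 0.05 with the same fold and 0 by DESeq2. SYT4 had the lowest FDR there, 0.31, with 1117 CPM in CBC and 1335 CPM in CBV and CBC below CBV in 8 of 8 animals, and SYT12 was higher in CBC in 8 of 8 animals (189 and 147 CPM, FDR 0.37).

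**Figure D5:**
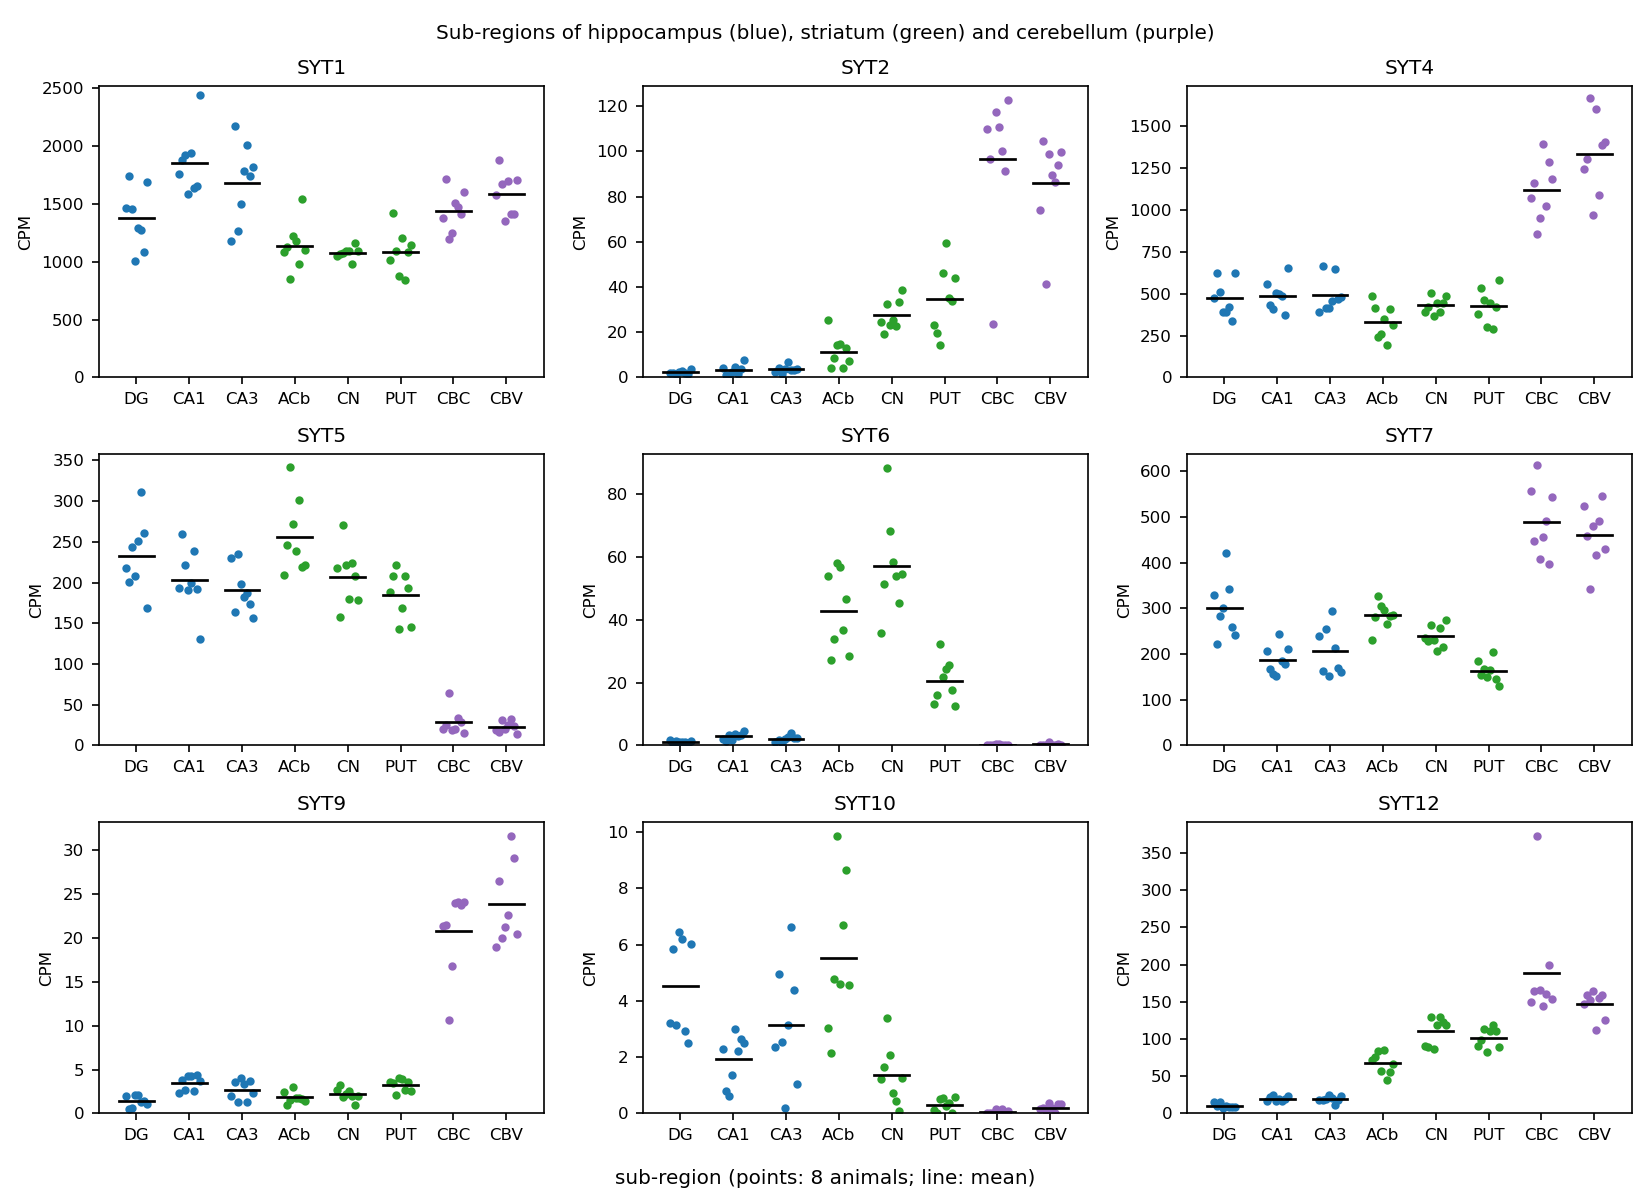
CPM of each member in the 3 hippocampal (blue), 3 striatal (green) and 2 cerebellar (purple) sub-regions; each point is 1 of 8 animals and the line is their mean. SYT10 steps down from ACb to PUT, SYT6 is low in PUT, and SYT7 is higher in DG than in CA1 and CA3.

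Age stage and sex were compared within each region group, 4 animals against 4, with a call at FDR < 0.1 and a fold above 2. Of 137 tested pairs of a member and a group 0 were called for age by edgeR (0.0153% of all gene and group pairs were), 8 had an unadjusted p under 0.05 (5.84%), and DESeq2 called 0. For sex 0 of 137 were called (0.103% of all), 7 had an unadjusted p under 0.05 (5.11%), and DESeq2 again called 0. An unadjusted p under 0.05 arises by chance at about that same rate. The 4 animals of either side did not overlap in 5 pairs for age and 2 for sex. These shares were not computed over all genes, so the counts set nothing apart about the members. The lowest FDR was 0.36 for age, for SYT12 in PIT. It was 1.52 ± 0.296 CPM in the mid-aged and 3.5 ± 0.70 CPM in the young animals, without overlap. SYT6 in HTHA (14.2 ± 5.71 against 24 ± 3.74 CPM), SYT5 in CB (19.7 ± 3.39 against 34.2 ± 10.9 CPM) and SYT12 in STR (87.8 ± 7.42 against 104 ± 7.85 CPM) were likewise lower in the mid-aged animals without overlap, and none of these passed the correction (FDR 1.0, 0.86 and 0.91). The mid-aged HTHA samples include that of animal 6 (11.6 CPM SYT6), and without this animal the log2FC was −0.86 in place of −0.81. SYT12 in MO also lay apart (16.4 ± 10.3 against 34.2 ± 3.72 CPM, FDR 0.52), with the low sample of animal 6 among the mid-aged animals, without which the log2FC was −0.68 in place of −1.16. For sex the lowest FDR was 0.22, for SYT4 in PIT, 764 ± 108 CPM in females and 599 ± 145 CPM in males, which overlapped. SYT4 in OB (251 ± 15.9 CPM in females, 316 ± 38.8 CPM in males) and SYT1 in MO (436 ± 260 and 916 ± 269 CPM) did not overlap between the sexes, with FDR 1.0 for both. The females in MO include the sample of animal 6 (53.6 CPM SYT1, the others 500 to 632 CPM), and without this animal the log2FC was −0.59 in place of −1.07. Leaving out animal 7 gave 2 calls for age (SYT6 in PIT and SYT2 in THA) and 2 for sex (SYT6 and SYT9 in PIT), in fits in which the number of calls over all genes rose from 38 to 937 for age and from 256 to 2342 for sex.

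The pattern of each member over the 51 sub-regions was compared with that of 12116 genes with a symbol and a mean of at least 1 CPM, as Pearson r of log2(CPM + 1) of the sub-region means, which share their libraries. ANKRD34A (r = 0.96) and SV2A (0.95), a synaptic vesicle protein gene, were most like SYT1. CBARP (0.95), a regulator of calcium channels, and PSD (0.95) were most like SYT5. CERS6 (0.93) and MTUS2 (0.92) were nearest to SYT7, CAMSAP3 (0.92) and SEZ6L2 (0.91) to SYT4, and PGM2 (0.92) and KCTD11 (0.89) to SYT9. SYT12 was followed most closely by CACNB4 (0.90), a calcium channel subunit, and GRIPAP1 (0.89). The nearest genes lay further off for SYT2 (ESRRA 0.80, SKA2 0.79), SYT6 (MYO3A 0.80, TMEM131L 0.80) and SYT10 (CLEC18A 0.72, FSIP1 0.70). Among the members themselves r ran from −0.80 for SYT5 with SYT9 to 0.86 for SYT4 with SYT7, each over the 51 sub-region means.

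Of the other synaptotagmins 6 of 7 listed were tested, and these were called higher in 4 and lower in 27 of 90 pairs with a group. Over all genes tested, 11.9% of such pairs were called higher and 12.7% lower. The median log2FC of these 6 genes against the cortex was −0.36, beside −0.71 for the 9 members. SYT13, which does not bind calcium, and SYT17 made up most of the lower calls. SYT13 was 360 CPM in the cortex, 81.8 CPM in CB, 125 CPM in MO and 2.63 CPM in PIT. SYT17 fell to 4.50 CPM in CB and 19.7 CPM in MO from 72.5 CPM in the cortex and was called higher in AMY (146 CPM). SYT14 was higher in CB (11.3 against 5.53 CPM) and SYT16 lower in PIT (8.37 against 50.8 CPM).

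Of the release machinery, 23 of 29 listed genes were tested, and 11 of 345 pairs were higher and 176 lower, with a median log2FC of −1.06. In CB the largest rises of this list were DOC2B (172 against 52.0 CPM), a calcium-binding C2 domain protein, and UNC13C (399 against 150 CPM), a priming factor, and the largest drops were CPLX3 (1.96 against 14.3 CPM) and ERC2 (28.1 against 131 CPM). In MO SV2C was higher (15.6 against 5.54 CPM) and CPLX3 (0.576 CPM) and STX1A (11.9 against 159 CPM) were lower, and in PIT RPH3A (0.474 against 505 CPM) and RIMS3 (1.59 against 488 CPM) were lower. The dense-core vesicle genes (14 of 16 tested) had 20 higher and 66 lower of 210 pairs. PIT was the group with the largest number of higher calls, 5 of 14 genes (20.5% of all genes were called higher there). They were led by the granin genes CHGB (10348 against 494 CPM) and SCG2 (2193 against 477 CPM), while CADPS2 (22.7 against 186 CPM) and PCSK2 (45.6 against 192 CPM) were lower. In CB CADPS2 (654 CPM) and CHGB (1323 CPM) were higher and PCSK1 (2.09 against 320 CPM) and CHGA (2.64 against 314 CPM) lower, and in MO VAMP3 (263 against 83.1 CPM) was higher and CADPS2 (24.7 CPM) and PCSK1 (80.3 CPM) lower. The 9 pan-neuronal genes had 8 higher and 51 lower of 135 pairs. They included STMN2, higher in CB (2132 against 877 CPM), UCHL1 and ELAVL4, lower in CB (312 against 811 and 159 against 345 CPM), RBFOX3 and ELAVL4, lower in MO (48.2 against 307 and 164 against 345 CPM), and NEFL and GAP43, lower in PIT (20.7 against 1137 and 11.0 against 396 CPM).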

How the data were processed

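Whole-number counts per gene, 8 animals by 51 sub-regions, were used as deposited by the authors, without normalization. By the methods of the paper and the submitters' processing notes, the authors trimmed reads with Trim Galore 0.4.4, mapped them with HISAT2 2.0.5 to the Mmul 8.0.1 genome and counted them on genes of Ensembl release 91 with HTSeq 0.6.1. The strand option of the counting is not given in the sources used here. Members were found by symbol through the reference table of gene IDs (17572 of 30807 genes had a symbol). The members and gene lists were chosen with earlier results of these data known. The labels name the animal of each sample, and this pairs the region groups.

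Counts of a region group or lobe were summed within each animal. Tests used edgeR 4.0.16 in R 4.3.3, with TMM scaling, filterByExpr and quasi-likelihood F tests, and p-values were adjusted by Benjamini-Hochberg across every gene tested. The animal was a block in comparisons between regions, and age stage (young, up to 5 years) and sex were each other's covariate. The SE is the absolute log2FC over the square root of F. The SYT2 to SYT1 ratio had a pseudocount of 0.5 on counts for its test. A group with at most 3 counts in every sample would have been treated as at the floor, and for the members none was. The named genes are all members, the 2 genes of most similar pattern for each, and in CB, MO and PIT up to 2 called genes a direction of each list. Alternatives were DESeq2 1.42.0 and its size factors, the study's detection rule (count above 1 in at least 3 samples), fits without the block or covariate, a fold above 4, other forms of the ratio and each animal left out; leaving out the MO sample of animal 6 was added after seeing the data. The fits were tested on simulated data. The 33 ATAC-seq samples and 8 midbrain samples were not used here.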

Additional observations from a re-analysis of the deposited data

Results flagged for a closer look

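In 12 of the 144 pairs of a member and a region group (8.33%) the highest or lowest of the 8 animals lay apart from the others by more than Dixon's 95% critical value, which chance gives in about 1 of 20 groups. Animal 4 was the sample concerned in 6 of these and animal 6 in 4.

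Animal 4 had the lowest SYT2 in CB, 32.9 CPM with the next animal at 95.1. It had the highest SYT12 in CB (270 CPM, next 190), in PON (69.9 CPM, next 52.9) and in SN (16.2 CPM, next 10.5), and the highest SYT5 (118 CPM, next 52.3) and SYT6 (34.7 CPM, next 12.1) in MO. Its SN sample also had the highest summed level of 3 cortical markers in SN, 101 CPM with the next at 43.8, and SYT12 was 64.9 CPM in the cortex against 9.76 CPM in SN; the part of this in the SN value was not tested. Animal 4 was also the highest for SYT12 in 10 of 16 region groups.

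Animal 6 had the highest SYT7 (285 CPM, next 110) and SYT12 (53.2 CPM, next 34.4) in HTHA, in the sample with a high level of cortical markers, and the lowest SYT4 in MO (28.3 CPM, next 258), in the sample low in pan-neuronal genes. Its SYT6 level in CB was the highest, 0.754 CPM with the next at 0.331. The remaining flagged values were SYT6 in CC of animal 8 (2.16 CPM, next 1.20) and SYT10 in THA of animal 7 (3.88 CPM, next 1.94).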

How the results depend on the processing

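The counts of calls kept within 1.5 times their values under the alternatives, except that a fold above 4 left 15 higher and 29 lower pairs against the cortex. Leaving out each animal gave 0 to 2 calls for age and 0 to 2 for sex, the calls coming without animal 7, and 23 to 25 higher and 55 to 58 lower pairs. The SYT10 difference between MO and cortex changed sign without the animal as a block (log2FC 0.028) and without the MO sample of animal 6 (0.12), and ranged from −0.19 to 0.18 when each animal was left out, above 0 without animal 3 (0.061), 6 or 10 (0.045). SYT4 in PIT turned to −0.062 with the detection rule, and SYT12 in the occipital lobe to 0.0045 with no block. The ratio difference in HTHA turned to 0.048 with a pseudocount of 5 and to 0.29 as a mean over sub-regions. None of these was called in either form. The ratio in THA lost its call as a mean over sub-regions (−0.63, adjusted p = 0.063 by the exact permutation test), while CC and PIT gained one with both forms. A pseudocount of 5 by itself raises the ratio where SYT2 counts are few, 1 to 6 per animal in PIT and 4 to 34 in CC. The gains with that form cannot be told apart from this. With DESeq2 SYT12 in HTHA and SYT4 in MO and PON fell just under 2-fold, and SYT9 in OB rose past it. With DESeq2's size factors PON, not CB, was the highest group for SYT2. Low counts limit SYT10 and SYT6 in CB and SYT2 in PIT.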
